A study of Mus musculus with 24 samples.

Results

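The NCoR-HDAC3 corepressor is the protein complex that the nuclear receptors Rev-erb alpha and Rev-erb beta bring to the genes they repress, and its subunit transcripts were followed here in liver with and without both receptors. The members were all array probes annotated to 5 subunit genes: Ncor1, Hdac3, Tbl1x, Tbl1xr1 and Gps2. Of the 25697 probes on the array, 5 were annotated to 4 of these genes, 1 each for Hdac3, Tbl1x and Tbl1xr1 and 2 for Gps2. No probe was annotated to Ncor1 by symbol or gene identifier, so the scaffold subunit was not analysed here. Of the 5 probes, 4, of 3 genes, passed the filter on dim probes, as did 10243 probes in all. The transcripts of Hdac3, Tbl1x and Gps2 were present in both genotypes, and none passed a test for a genotype difference or a daily rhythm.

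NCoR is a large scaffold protein that binds nuclear receptors lacking an activating ligand. It carries the histone deacetylase HDAC3, which removes acetyl groups from histone tails and gains its enzyme activity by binding NCoR. TBL1X and TBL1XR1 are closely related WD-repeat proteins that hold the complex on chromatin and take part in exchanging corepressors for coactivators, and GPS2 is a small subunit that binds NCoR and the TBL1 proteins. Rev-erb alpha and beta have no activation function of their own, and in mouse liver they act with this complex to repress clock genes and genes of lipid metabolism.

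Total RNA came from livers of male mice, 20 weeks old, on the c57Bl6/J background. The wild-type (WT) group had the strain label Reverbalpha/beta Alb Cre-, and the liver-specific double knockout (DKO) group had Reverbalpha/beta Alb Cre+. The albumin promoter drives Cre mainly in hepatocytes, and the receptors of other liver cells were not tested here. Each genotype was sampled at ZT0, 4, 8, 12, 16 and 20, with ZT in hours after the lights came on, and each of these 12 groups had 2 arrays that the labels call technical replicates. How many animals an RNA sample stands for is not stated in the labels.

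Levels below are background-corrected, quantile-normalized log2 intensities, averaged over the 2 arrays of a group, so each genotype and time has 1 value and the 6 times stand in for replicates. Median unprocessed signals were 245 to 341 and paired arrays correlated at 0.989 to 0.994. The arrays lay on 3 slides, the first with DKO at ZT0 to ZT12, the second with DKO at ZT16 and ZT20 and WT at ZT0 and ZT4, and the third with WT at ZT8 to ZT20, so at any single time genotype and slide cannot be told apart. Of 9 hepatocyte markers, 7 were kept, with summed linear levels of 291130 to 324123 in WT and 292463 to 318646 in DKO. The DKO ZT0 sample stood apart in markers of other cells. The 4 kept of 9 neutrophil markers summed to 5857 there against 734 to 2017 in the other 11 samples. For Kupffer cells and macrophages 5 of 9 listed symbols were kept, where Emr1, not kept, is an older symbol of the listed Adgre1. Those 5 summed to 17930 against 5082 to 9950, and the 7 kept of 8 endothelial markers to 26722 against 16704 to 19642. The DKO ZT0 sample was also the highest for the 1 kept of 9 lymphocyte markers (169 against 62.2 to 129), the 1 kept of 6 cholangiocyte markers (324 against 62 to 294) and the 2 kept of 6 erythroid markers (75262 against 18284 to 65047). For the 5 kept of 8 stellate cell markers it was not, with 29836 against 21770 to 31774. The lymphocyte and cholangiocyte values each come from 1 gene with low signal, whose detection by sample is not given here. The part of these cells in the results below was not tested.

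The targeted receptors gave no check of the labels, because the labels and the annotation do not say where their probes lie relative to the deleted part. Nr1d1, encoding Rev-erb alpha, had WT levels of 7.19, 10.50, 9.41, 9.08, 7.19 and 6.41 from ZT0 to ZT20 and DKO levels of 9.59, 11.03, 10.58, 9.77, 9.59 and 8.81. Nr1d2, encoding Rev-erb beta, had WT levels of 7.70, 9.44, 10.45, 10.91, 9.62 and 8.35 and DKO levels of 9.57, 9.89, 10.05, 10.02, 10.13 and 9.90. The signal of both genes was therefore present in the livers labelled knockout, for Nr1d1 above WT at every time and for Nr1d2 nearly level over the day.

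The promoters of the subunit genes were read for the DNA words that Rev-erb and the clock activators bind. The Tbl1x and Gps2 windows are shown because, among the members detected on every array, these had the widest and the narrowest range of levels. Both come from RefSeq on GRCm38.p6 and run 5′ to 3′ from 250 bases before the start of transcription through the first 50 transcribed bases, which are in capitals. The Tbl1x window is chrX:77510977-77511276 on the plus strand and the Gps2 window is chr11:69913770-69914069 on the plus strand.
Tbl1x: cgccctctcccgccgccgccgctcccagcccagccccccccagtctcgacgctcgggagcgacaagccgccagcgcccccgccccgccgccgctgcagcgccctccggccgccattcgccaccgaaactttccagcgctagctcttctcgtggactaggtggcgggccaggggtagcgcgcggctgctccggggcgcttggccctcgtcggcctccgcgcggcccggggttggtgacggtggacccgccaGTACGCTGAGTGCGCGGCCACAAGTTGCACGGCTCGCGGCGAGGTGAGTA
Gps2: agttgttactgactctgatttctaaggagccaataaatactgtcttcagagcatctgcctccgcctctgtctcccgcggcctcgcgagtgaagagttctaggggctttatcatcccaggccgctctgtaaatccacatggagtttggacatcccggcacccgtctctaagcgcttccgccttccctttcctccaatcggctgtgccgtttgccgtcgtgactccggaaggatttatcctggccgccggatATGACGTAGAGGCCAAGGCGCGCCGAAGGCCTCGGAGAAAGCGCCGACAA
Neither window, nor those of Tbl1xr1 or the 2 starts of Ncor1, held the E-box CACGTG, the half-site AGGTCA or the longer Rev-erb and ROR element ANTAGGTCA, which contains the half-site, on either strand. Over 32851 promoter windows of the same length, 7.15% held the E-box, 16.3% the half-site and 0.661% the longer element. The share of G and C was 75.3% in the Tbl1x window, 76.3% for Tbl1xr1, 56.7% for Gps2, and 38.3% and 72.3% for the Ncor1 starts, against a median of 52.7% over all windows. The Tbl1x window held 43 CG dinucleotides, the Tbl1xr1 window 25, the Gps2 window 24, and the Ncor1 windows 2 and 36. The Hdac3 window was not analysed here.

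**Figure D1:**
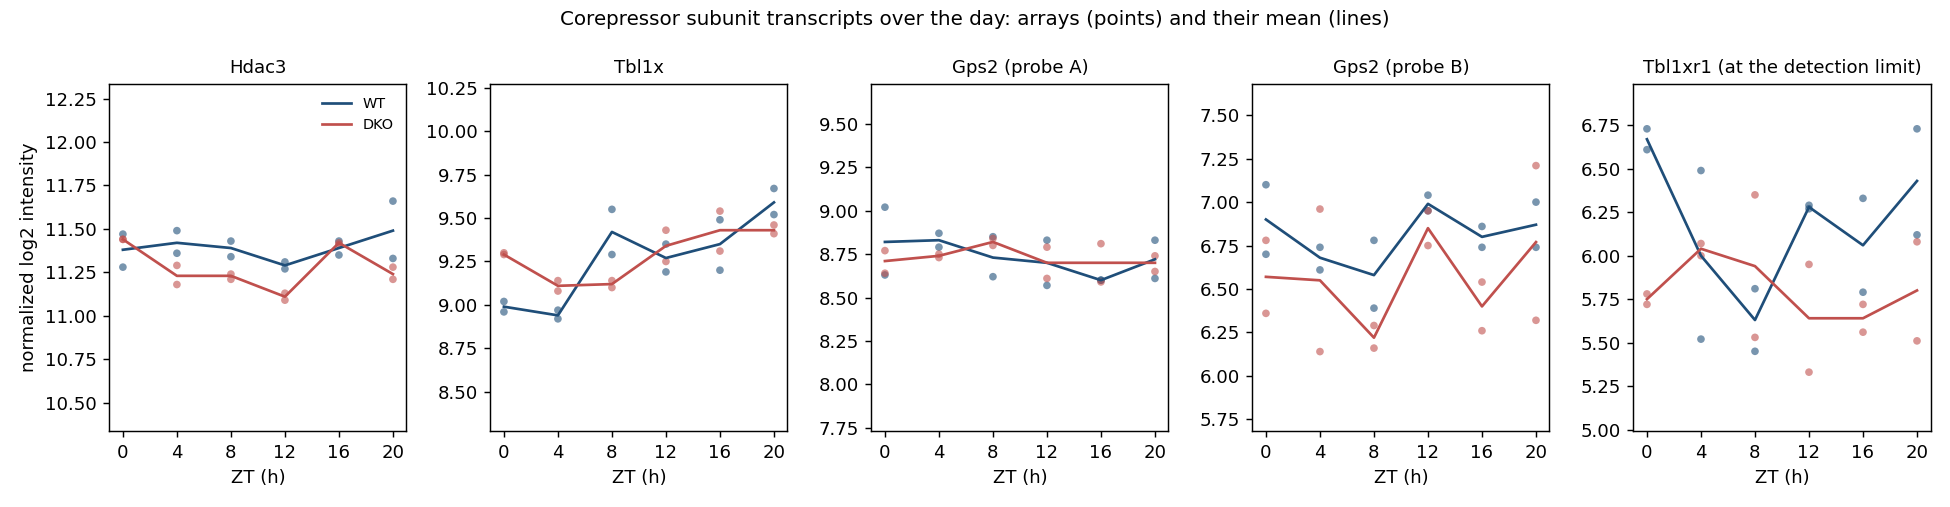
Normalized log2 intensity (vertical axes, each spanning the same width of 2 log2 units) of the 5 member probes against ZT in hours, with points for single arrays and lines for the mean of the 2 arrays of a group, WT in blue and DKO in red. The Hdac3 lines stay between 11.11 and 11.49 and those of Gps2 probe A between 8.60 and 8.83, while the Tbl1x lines first cross between ZT4 and ZT8.

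Hdac3, the catalytic subunit, was measured by 1 probe (ILMN_1220353) that was detected on 24 of 24 arrays. In WT liver its level was 11.38 at ZT0, 11.42 at ZT4, 11.39 at ZT8, 11.29 at ZT12, 11.39 at ZT16 and 11.49 at ZT20. In DKO liver it was 11.44, 11.23, 11.23, 11.11, 11.42 and 11.24 at the same times. The levels thus lay close together, with the DKO livers at ZT4, ZT8, ZT12 and ZT20 at the bottom of the order and WT at ZT20 at the top. The distance from lowest to highest was 0.38 on the log2 scale, or 1.3-fold. In 1 of the 11 steps of this order the arrays of neighbouring groups did not overlap. The order was sorted on these same levels, which sets neighbours close by construction. Here and below, such steps were not counted over all kept probes, so they are a description only. The WT arrays at ZT20 were themselves 11.33 and 11.66.

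The mean of Hdac3 over the 6 times was 11.39 ± 0.07 (SD, n = 6) in WT and 11.28 ± 0.12 (SD, n = 6) in DKO. The DKO minus WT difference in the limma fit was -0.11 ± 0.08 (SE), with a 95% interval from -0.30 to 0.07 and an adjusted p of 0.404. As a ratio of DKO to WT this interval ran from 0.814 to 1.05, and DKO was the higher at 2 of 6 times. Liver was measured in bulk, so here and below fewer cells of a type and less RNA per cell cannot be told apart. With slide as a fixed block the Hdac3 difference was -0.01 (adjusted p = 0.993). Without the DKO ZT0 sample it was -0.14 (limma adjusted p = 0.358).

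Hdac3 also had little daily change. The fitted 24 h amplitude, the distance from the mean to the peak of the fitted curve, was 0.06 ± 0.08 (SE) in WT and 0.10 ± 0.08 in DKO, each about the size of its own error. Neither rhythm passed in limma, with adjusted p-values of 0.91 and 0.887, and the difference in rhythm had an adjusted p of 0.998. The amplitudes leave no peak time worth reading.

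Tbl1x, one of the chromatin-holding subunits, varied more than the other members detected on every array. Its probe (ILMN_2674890) was detected on 24 of 24 arrays and gave 8.99, 8.94, 9.42, 9.27, 9.35 and 9.59 in WT from ZT0 to ZT20. In DKO it gave 9.29, 9.11, 9.12, 9.34, 9.43 and 9.43. The lowest values were WT at ZT4 and ZT0 and the highest was WT at ZT20, so the WT course held the whole range of 0.65, or 1.57-fold, while the DKO range was 0.32. The order of the 12 levels had 3 of 11 steps at which the arrays of neighbours did not overlap.

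In WT, both low Tbl1x samples lay on the second slide and the 4 higher ones on the third. The mean of the third-slide WT samples was 0.44 above that of the second-slide ones. In DKO, the second-slide samples were 0.21 above the first-slide ones. Within the second slide, DKO at ZT16 and ZT20 averaged 9.43 and WT at ZT0 and ZT4 averaged 8.96, a difference of 0.46 between genotypes sampled at different times. In the differences between slides, the part of slide and of time cannot be told apart. In the difference within the second slide, the part of genotype and of time cannot be told apart.

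Over the 6 times Tbl1x averaged 9.26 ± 0.25 (SD, n = 6) in WT and 9.29 ± 0.14 (SD, n = 6) in DKO. The limma difference was 0.03 ± 0.11 (SE), with a 95% interval from -0.21 to 0.26, a DKO to WT ratio from 0.865 to 1.20 and an adjusted p of 0.893. With slide as a fixed block the difference was 0.46 (adjusted p = 0.494), and with slide as a random block it was 0.06. The 24 h amplitudes were 0.21 ± 0.11 (SE) in WT, with a fitted peak at ZT15.4, and 0.18 ± 0.11 in DKO, with a fitted peak at ZT17.6. These were the largest fitted amplitudes among the 4 member probes tested, and neither passed in limma, with adjusted p-values of 0.531 and 0.819. The difference in rhythm had an adjusted p of 0.985.

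Tbl1xr1, the paralog of Tbl1x, was at the detection limit. Its probe (ILMN_2784170) was detected on 1 of 24 arrays, in WT at ZT20, where the detection p was 0.00251, and on none of the 12 DKO arrays. It did not pass the filter and was not tested. Its averages, 5.63 to 6.67 in WT and 5.64 to 6.04 in DKO, come almost wholly from undetected signals and are not measured levels. Arrays of the same RNA sample differed with an SD of 0.36, and in none of the 11 steps of the order were neighbouring groups apart. No genotype or time difference of Tbl1xr1 was readable at this signal.

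Gps2 had 2 probes, called A (ILMN_2730784) and B (ILMN_1226653), whose places on the transcript the annotation used here does not state. Probe A was detected on 24 of 24 arrays and gave 8.82, 8.83, 8.73, 8.70, 8.60 and 8.72 in WT from ZT0 to ZT20. In DKO it gave 8.71, 8.74, 8.82, 8.70, 8.70 and 8.70. By this probe Gps2 was the flattest of the members: the 12 levels spanned 0.23, or 1.18-fold, from WT at ZT16 to WT at ZT4, and 3 of the 6 DKO values were 8.70. The means were 8.73 ± 0.09 (SD, n = 6) in WT and 8.73 ± 0.05 (SD, n = 6) in DKO.

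The probe A difference in limma was -0.01 ± 0.07 (SE), with a 95% interval from -0.16 to 0.15 and an adjusted p of 0.956. The ratio of DKO to WT lay between 0.892 and 1.11 at that confidence, the narrowest interval of the 4 probes tested. Amplitudes were 0.10 ± 0.07 (SE) in WT and 0.05 ± 0.07 in DKO, with limma adjusted p-values of 0.681 and 0.959 for rhythm and 0.982 for its difference.

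Probe B of Gps2 was near the detection limit, with 8 of 12 WT arrays and 2 of 12 DKO arrays detected. It gave 6.90, 6.68, 6.58, 6.99, 6.80 and 6.87 in WT and 6.57, 6.55, 6.22, 6.85, 6.40 and 6.77 in DKO, so the DKO value was lower at all 6 times. The probe passed the filter only through WT groups, those at ZT12, ZT16 and ZT20. No DKO group had both arrays detected, so its DKO values come mostly from undetected signals and are not measured levels. The limma fit returned a difference of -0.24 ± 0.12 (SE), with a 95% interval from -0.52 to 0.03 and an adjusted p of 0.23, and it did not pass. This is not a measured size, and with slide as a fixed block the fit returned -0.70 (adjusted p = 0.536). Paired arrays of probe B differed with an SD of 0.30, against 0.13 for probe A and a median of 0.15 over all kept probes, and no neighbours in the order of its 12 levels were apart. Its limma adjusted p-values for rhythm were 0.837 (WT) and 0.927 (DKO), and 1 for the rhythm difference.

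**Figure D2:**
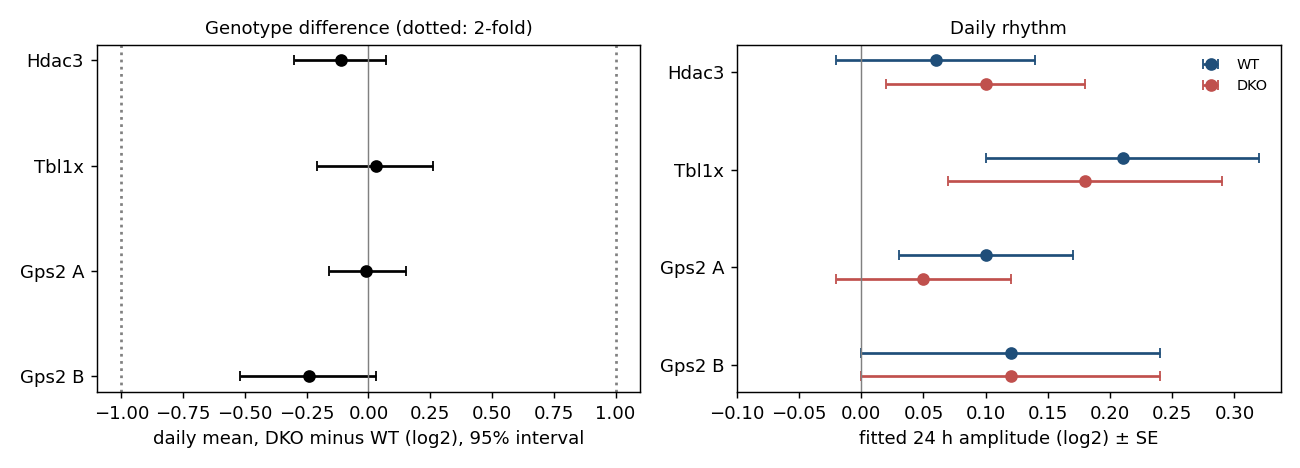
Left, the DKO minus WT difference in daily mean (log2, horizontal axis) of the 4 tested member probes, with bars for the 95% interval and dotted lines at a 2-fold change; right, the fitted 24 h amplitude (log2) with bars of 1 SE, WT in blue and DKO in red. All 4 intervals hold 0 and lie inside the dotted lines, with the DKO values of Gps2 probe B mostly below detection, and the Tbl1x amplitudes, 0.21 and 0.18, are the largest.

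Set against all probes, 0 of the 4 member probes were called in daily mean at a limma adjusted p under 0.05, where 9.95% of the 10243 kept probes were called (4.14% higher and 5.81% lower in DKO). For WT rhythm 0 of 4 were called against 0.254% of all, for DKO rhythm 0 of 4 against 0.0683%, and for the difference in rhythm 0 of 4 against 0%. At an unadjusted p under 0.05 the member count was also 0 in each of the 4 tests, while 2899, 1399, 786 and 632 of all probes lay there. With only 4 probes and a daily mean share of 9.95%, a count of 0 stands close to the background, and Gps2 probe B was among the 4 only through its WT groups. The median size of the daily mean difference was 0.07 over the member probes and 0.16 over all kept probes, and the median WT amplitudes were 0.11 and 0.19.

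The spread of the members over all 12 samples was at the low end of the array for Hdac3 and Gps2 probe A. The median range over all kept probes was 0.83, with quartiles of 0.60 and 1.16. Only 0.537% of kept probes had a smaller range than Gps2 probe A and 4.17% a smaller range than Hdac3, while the shares were 30.6% for Tbl1x and 44% for Gps2 probe B. A range also holds the spread between arrays, which had an SD of 0.09 for Hdac3, 0.11 for Tbl1x, 0.13 for Gps2 probe A and 0.30 for Gps2 probe B. The range of probe B also holds DKO values that were mostly below detection, so it is not a measured range.

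**Figure D3:**
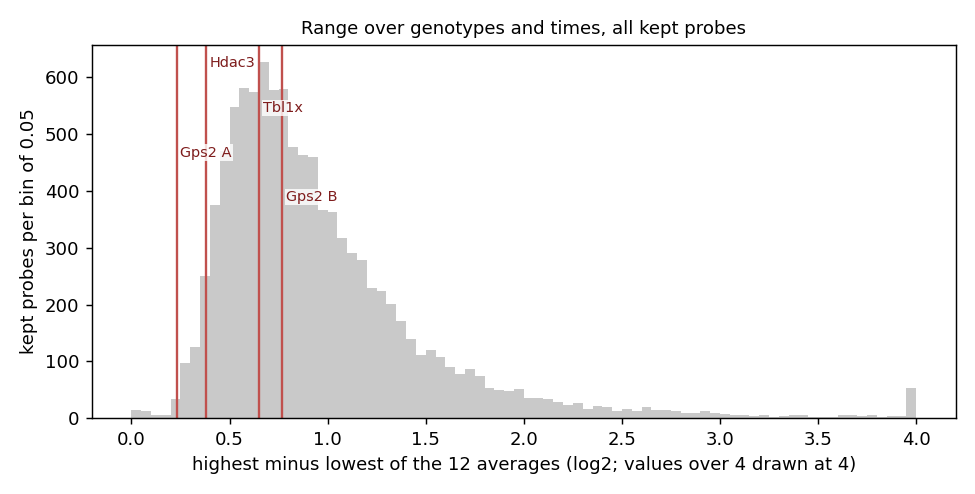
Histogram of the range of each kept probe, the highest minus the lowest of the 12 sample averages (log2, horizontal axis, with values over 4 drawn at 4), with the number of probes per bin of 0.05 on the vertical axis and red lines at the 4 tested member probes. Gps2 probe A (0.23) and Hdac3 (0.38) lie in the left tail, and Tbl1x (0.65) and Gps2 probe B (0.77) lie left of the median of 0.83. The DKO values of probe B were mostly below detection.

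At single times there was 1 RNA sample per genotype and no test, and the genotypes were called apart where their arrays did not overlap. Of the 24 pairs of a member probe and a time, 11 were apart, where 62.6% of such pairs were apart over all kept probes, and 0 were apart by at least 1 on the log2 scale, where 2.76% of all pairs lay. By time, 1 of 4 member probes was apart at ZT0 (69.1% of all kept probes), 3 at ZT4 (53.4%), 3 at ZT8 (66.2%), 1 at ZT12 (65.7%), 1 at ZT16 (59.6%) and 2 at ZT20 (61.6%). Arrays that do not overlap were thus common on the whole array. The 24 pairs include those of Gps2 probe B, whose DKO values were mostly below detection.

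Hdac3 was lower in DKO with arrays apart at 4 of 6 times, where DKO minus WT was -0.19 at ZT4, -0.16 at ZT8, -0.17 at ZT12 and -0.25 at ZT20. Its arrays overlapped at ZT0 (0.07) and ZT16 (0.03). Tbl1x was apart in both directions, higher in DKO at ZT0 (0.31) and ZT4 (0.17) and lower at ZT8 (-0.30) and ZT20 (-0.16). Opposite directions at different times were found for 50.7% of all kept probes. Gps2 probe A was apart at ZT4 alone (-0.09), and probe B at ZT8 (-0.36) and ZT16 (-0.40). At both of these times probe B was detected on 0 of 2 DKO arrays, so its values there are not measured sizes.

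Genes that bind, modify or act beside the complex were read from 8 lists, 95 genes in all, of which 58 had a kept probe. Over the 58, 6 passed as higher (Npas2, undetected in WT, among them) and 2 as lower in DKO in daily mean, and 50 did not pass, where 9.63% of all 7272 measured genes passed (4.48% higher and 5.14% lower). The median difference was -0.01 over the 58 genes and 0.02 over all genes. Those that passed were 4 nuclear receptors, 1 coactivator and 3 clock targets of Rev-erb, and no measured gene of the 5 lists of corepressor subunits, deacetylases and their modifiers passed on the probe counted, although a further probe of Hdac6 did. Without the DKO ZT0 sample, 5 of the 58 passed as higher and 2 as lower, with Nfil3 no longer passing.

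Of the other listed subunits and partners of the NCoR complex, 4 of 9 were measured (Zbtb33, Hdac4, Hdac5 and Hdac10) and 0 passed, with a median difference of -0.11. The largest was Zbtb33, encoding the methyl-DNA-binding protein Kaiso, at -0.22 ± 0.08 (SE, limma adjusted p = 0.108). The kinases and phosphatases acting on HDAC3 and the ubiquitin ligases of NCoR were measured for 7 of 9 genes, and 0 passed. Within that list Csnk2a2, a catalytic subunit of casein kinase 2, differed by 0.01 and Ppp4c, the catalytic subunit of protein phosphatase 4, by 0.15.

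Siah2, a ubiquitin ligase that targets NCoR for degradation, had the largest difference among the genes listed for the complex and its modifiers and did not pass. Its WT levels were 7.64, 7.51, 8.19, 7.62, 7.84 and 7.86 and its DKO levels 7.07, 6.78, 7.35, 5.97, 7.26 and 7.53, lower in DKO at all 6 times. The limma difference was -0.78 ± 0.24 (SE) with an adjusted p of 0.0658, and with slide as a fixed block it was 0.67. Its paralog Siah1a differed by -0.63 ± 0.21 (adjusted p = 0.0829). Siah2 was detected on 12 of 12 WT arrays and on 6 of 12 DKO arrays. For Siah1a these counts were 10 of 12 and 6 of 12. The sizes of both differences thus rest in part on undetected values.

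The other histone deacetylases were measured for 5 of 5 genes and 0 passed, with a median difference of -0.10. Hdac1 differed by 0 and Hdac2 by -0.10, while Hdac6, a mainly cytoplasmic deacetylase, differed by -0.39 ± 0.15 (SE, limma adjusted p = 0.125). A further Hdac6 probe, not the one counted, differed by -0.64 with an adjusted p of 0.0165, so the probes of Hdac6 disagreed in the call. Of 25 subunits of the Sin3, NuRD and CoREST corepressors 13 were measured and 0 passed, with Mta2, a NuRD subunit, the largest at -0.32 ± 0.14 (adjusted p = 0.174). Of 9 other corepressors only Tle1 was measured, at 0.10 ± 0.12 (adjusted p = 0.606).

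Among nuclear receptors that bind NCoR, 12 of 19 were measured, and 2 rose and 2 fell in DKO. Nr1d1 rose by 1.60 ± 0.29 (SE, limma adjusted p = 0.0131), and Nr1d2 by 0.52 ± 0.12 (adjusted p = 0.0261), higher in DKO at 4 of 6 times. The Nr1d2 call was lost with median scaling (0.27, adjusted p = 0.112) and with time as a factor (adjusted p = 0.354). With slide as a random block neither gene passed in limma (adjusted p = 0.0669 for Nr1d1 and 0.0982 for Nr1d2). Nr1d2 was also the only list gene called rhythmic in WT. Of all 7272 genes, 0.234% were called rhythmic in WT.

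Ppara encodes the fatty acid-sensing receptor that drives fatty acid oxidation in liver. Its WT levels were 7.72, 8.40, 8.83, 9.15, 9.06 and 8.31, and its DKO levels were 7.34, 8.02, 7.99, 7.73, 7.63 and 7.91. It was lower in DKO at every time and fell by 0.81 on the log2 scale (SE 0.13, limma adjusted p = 0.00875). Pparg, the receptor best known for driving fat cell formation, had WT levels of 9.34, 8.73, 9.58, 9.40, 9.91 and 10.56 and DKO levels of 9.01, 7.87, 8.51, 7.87, 8.81 and 8.98. It fell by 1.08 (SE 0.23, adjusted p = 0.0201), and a further Pparg probe fell by 0.89 (adjusted p = 0.0204). Within the second slide, between genotypes at different times, the differences were -0.29 for Ppara and -0.14 for Pparg, and a fixed slide term gave -0.35 and 0.02, neither passing. Neither call held in all fits that left out 1 of the 6 times: Ppara passed without ZT0, ZT4 or ZT20, and Pparg without ZT4 or ZT8. The fitted differences in those 6 fits were -0.89 to -0.75 for Ppara and -1.21 to -0.91 for Pparg. Such fits hold fewer samples, and over all kept probes the calls fell to 206 without ZT8.

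Of 14 coactivators 11 were measured and 1 passed. Carm1, an arginine methyltransferase that works with the p160 coactivators, had WT levels of 7.01, 7.15, 7.10, 7.04, 6.77 and 6.83 and DKO levels of 7.28, 7.46, 7.43, 7.60, 7.25 and 7.26. Every DKO value lay above every WT value, and the rise was 0.40 ± 0.08 (SE, limma adjusted p = 0.0165). It passed in none of the 6 fits that left out 1 time, with adjusted p-values of 0.0522 to 0.0818. With slide as a random block the rise was 0.38 and did not pass in limma (adjusted p = 0.0801). The size also depended on the processing: it was 0.15 without background correction (adjusted p = 0.0779), 0.16 on the authors' values (adjusted p = 0.0772) and 0.23 with median scaling (adjusted p = 0.0608), none of them passing. Ncoa1 and Ep300, a p160 coactivator and a histone acetyltransferase, differed by -0.05 and -0.01.

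Of 6 clock targets of Rev-erb 5 were measured, and 3 passed as higher and 0 as lower in DKO. One of the 3, Npas2, was kept only through its DKO groups, and with its difference set to the bound of 0 the median of the list was 0.33. Arntl, which encodes BMAL1, had WT levels of 9.50, 9.65, 5.64, 6.01, 8.60 and 9.43, of which those at ZT8 and ZT12 were below detection, and DKO levels of 9.48, 9.87, 9.49, 9.45, 9.71 and 9.87. The fitted difference in its mean was 1.51 ± 0.35 (SE, limma adjusted p = 0.0298), a size that rests in part on the undetected WT values, and the call was lost with time as a factor (adjusted p = 0.111). Nfil3, encoding the repressor E4BP4, rose by 1.09 ± 0.29 (adjusted p = 0.0439), and by 1.07 with an adjusted p of 0.084 without the DKO ZT0 sample. Npas2, a partner of BMAL1, passed in the fit (limma adjusted p = 0.00597) but was not well above background on any WT array and was detected on only 5 of 12 DKO arrays, so the filter was met by DKO at ZT16 and ZT20 alone. Its DKO mean, 6.81, equalled the WT detection floor of 6.81, which leaves no fold to state. With 1 time left out in turn, Nr1d1 passed in 3 of 6 fits, Nr1d2 in 2, and Arntl and Nfil3 in 1 each. With slide as a random block, Arntl (limma adjusted p = 0.128) and Nfil3 (0.183) did not pass. Npas2 passed in 4 of the 6 fits and with slide as a random block (limma adjusted p = 0.0283). Those Npas2 fits use undetected WT values and a filter met by DKO alone, so they add no support to its call. The part of slide and time in the calls of these genes cannot be told apart.

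**Figure D4:**
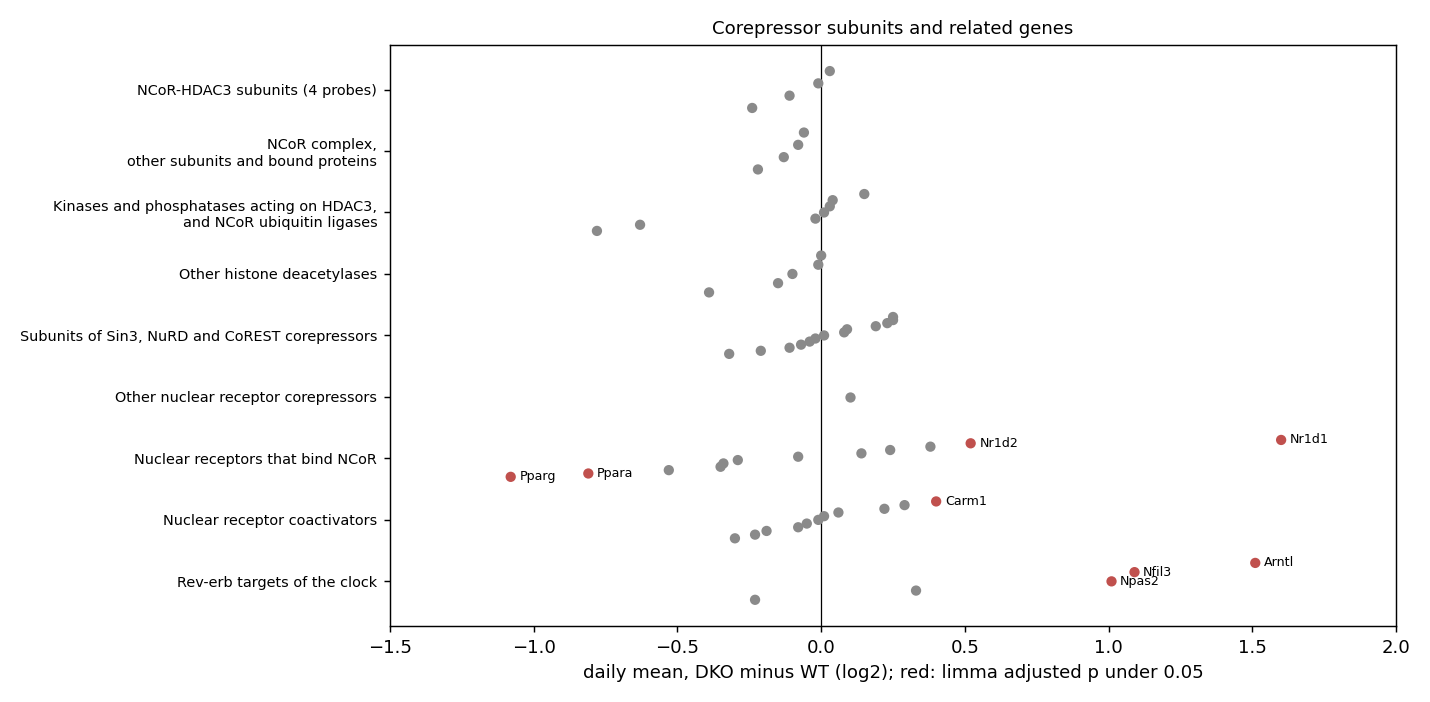
DKO minus WT difference in daily mean (log2, horizontal axis) of each measured gene, by list (vertical axis), with the 4 member probes in the top row; red points passed at a limma adjusted p under 0.05 and are named. The top 6 rows, which hold the corepressor subunits and their modifiers, have no red point, and the member probes lie between -0.24 and 0.03.

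Among the 7269 other measured genes, those whose 12 values followed a member most closely were named by Pearson correlation, as a description. Tbl1x was followed by Frk (r = 0.94), a tyrosine kinase, Aplp2 (0.88), a relative of the amyloid precursor protein, and Echdc1 (0.87). Hdac3 was followed by Faf2 (0.88), Plpp6 (0.86) and Ermp1 (0.85). For Gps2, read on probe A, the genes were Mettl14 (0.85), a subunit of the RNA m6A methyltransferase, Daxx (0.84) and Ccdc59 (0.83). After slide means were subtracted these correlations were 0.81 to 0.93. All 12 points of a pair come from the same arrays, and for Hdac3 and Gps2 they follow levels that moved by less than 0.5 on the log2 scale. The genes named are the highest of a search over 7269, and whether such a search reaches these values without any relation was not tested.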

How the data were processed

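Livers of 2 genotypes at 6 times were profiled on 24 Illumina bead arrays. GenomeStudio (version not stated) was used, per the submitters' processing notes. Per the column headers, the deposited values are, for each probe, an average signal, a number of beads, a bead standard error and a detection p-value. The signals are named as non-normalized and were used as linear intensities. The detection p-values were taken as measured against the array's negative controls, which the headers do not state. The authors' processed table, used as an alternative, holds linear intensity values with medians of 278.76 to 278.97 and a rank correlation of 1 with the unprocessed signal, so no centring of genes was seen, and its normalization stays unknown.

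In R 4.3.3 with limma 3.58.1, intensities were corrected by normexp from detection p-values with an offset of 16, quantile normalized and put on the log2 scale. Probes were kept if both arrays of 2 or more groups had a detection p under 0.01. The 2 arrays of a group were averaged. A 24 h harmonic with a mean per genotype was fitted to the 12 averages (6 residual and 3.47 prior degrees of freedom), and p-values were adjusted by Benjamini-Hochberg over all 10243 kept probes at a threshold of 0.05. With no replicate animals known, p-values measure only the spread of these samples around the fitted curves, and the number of arrays limits the precision, with 38.1 to 40.6 beads per probe on average. Lists used the kept probe with the highest mean for each gene.

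Genes named are all member probes, up to 4 passing genes of each list (or the 1 with the largest change), and the 3 genes most like each member. Further list genes, namely Siah1a, Csnk2a2, Ppp4c, Hdac1, Hdac2, Hdac4, Hdac5, Hdac10, Ncoa1 and Ep300, and the second Hdac6 and Pparg probes were chosen after their values were seen. The members and lists were chosen with earlier results of these data known. Probes were named through the platform annotation, where 23978 had 1 symbol, checked by gene identifier, which updated 0. Alternatives changed the background, normalization, filter, probe choice, treatment of paired arrays, slide, variance model and time term, and left out times, samples and arrays. The list genes under these alternatives, and the list counts without the DKO ZT0 sample, were added after the data were seen. One listed gene is counted in its lists and otherwise not reported here.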

Additional observations from a re-analysis of the deposited data

Results flagged for a closer look

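The Tbl1x probe was picked out because every DKO array lay above every WT array at some times and below at others. The DKO minus WT difference was 0.31 at ZT0 and 0.17 at ZT4, and it was -0.3 at ZT8 and -0.16 at ZT20. The change of direction between these times was not tested, since each genotype and time had 1 RNA sample. The limma test of the difference in rhythm, which bears on it in part, had an adjusted p of 0.985. The share of kept probes that were apart in both directions was 50.7%. At each of these times the compared arrays lay on different slides, and genotype and slide cannot be told apart.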

How the results depend on the processing

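With 1 exception the count of member probes called stayed at 0 under every alternative run for a test; time as a factor was run for the daily mean alone and each genotype alone for the rhythm tests. Scaling arrays to a common median called 2 in daily mean, Hdac3 at -0.35 (adjusted p = 0.0346) and Gps2 probe B at -0.35 (adjusted p = 0.0424). That scaling moved the median of all probes to -0.22, and relative to it the differences were -0.13 for both, 0.02 for Tbl1x and -0.01 for Gps2 probe A. It turned Tbl1x to -0.2 and Tle1 to -0.13, and called 3223 probes in daily mean (242 higher and 2981 lower, against 424 and 595 of 1019), 204 in WT rhythm and 4 in DKO rhythm. The member pairs apart went from 11 to 18 of 24. The share of pairs apart over all kept probes was not counted under that scaling, so the rise is not a result about the members. The cause of these shifts was not tested. Slide as a fixed block moved Gps2 probe B to -0.70, Hdac3 to -0.01 and Tbl1x to 0.46, and turned Gps2 probe A to 0.03, Siah2 to 0.67, Hdac6 to 0.10, Pparg to 0.02 and Nfil3 to -0.06. It called 0 probes in daily mean (1076 at an unadjusted p under 0.05), 0 in WT rhythm (960), 0 in DKO rhythm (1076) and 1 in rhythm difference; slide as a random block called 178 in daily mean and 13 in WT rhythm. Against 26 probes in WT rhythm and 7 in DKO rhythm, an offset of 50 called 41 in WT, no background correction 74 and 1, the authors' values 74 and 1, an intensity trend 72 in WT, and each genotype alone 0 and 0 (1262 and 724 at an unadjusted p under 0.05). No filter called 3 in DKO rhythm and probes detected on all 24 arrays 2, and 1 probe a gene called 677 in daily mean, 13 in WT and 4 in DKO rhythm. Replicate numbers did not pair the samples (correlations of -0.05 to 0.06 over 66 pairs of groups). Treating arrays as separate samples called 3652, 2186, 768 and 572 in the 4 tests, the replicate block 3565, 2034, 653 and 498, and the RNA sample as a random block 1790, 500, 105 and 55.

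Leaving out 1 time, sample or array gave 206 (without ZT8) to 1050 probes in daily mean, 1 to 35 in WT rhythm, 0 to 8 in DKO rhythm and 0 to 1 in rhythm difference. The daily mean difference was then -0.16 to -0.05 for Hdac3, -0.03 to 0.11 for Tbl1x, -0.04 to 0.02 for Gps2 probe A and -0.35 to -0.16 for Gps2 probe B, whose lowest adjusted p was 0.0968, so the signs of Tbl1x and Gps2 probe A were not settled. Signal over background limits Tbl1xr1 and Gps2 probe B.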
